A study of Arabidopsis thaliana with 12 samples.

Results

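Cupin seed storage proteins were followed through 5 genes of Arabidopsis thaliana: the cruciferin-like gene AT1G03890 and the vicilin-like genes AT2G28490, AT2G18540, AT4G36700 and PAP85. Members were taken by name, wherever the probe annotation paired a probe set with that gene alone. The rule itself uses no measured value, but the genes were picked with earlier results of these data known. All 5 had 1 such probe set, out of 13286 loci with a probe set of their own. All 5 also passed the filter on dim signals, which kept 14873 of 22746 probe sets. The name of each probe set ends in _at, the form given to probe sets designed against a single transcript. Whether their probes also bind related cruciferin or vicilin transcripts was not tested.

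Cupins are proteins built on a small beta-barrel fold. In seeds, the storage cupins are legumin-type globulins, called cruciferins in Arabidopsis and its relatives, and vicilin-type globulins. Both are made on the endoplasmic reticulum during seed filling, carried to protein storage vacuoles, and broken down after germination to feed the seedling. Cruciferins are cut there by vacuolar processing enzymes (VPEs). ABI3, a regulator of late embryo development, carries a B3 domain that binds RY elements, and it acts with bZIP factors on storage protein promoters.

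The material was developing seed of wild type (Col-0) and of abi3-6 homozygotes, which carry a severe allele of ABI3. Plants of both genotypes grew in long days, and siliques were opened 12 or 16 days after flowering, written here as DAF. With 2 genotypes and 2 ages there were 4 groups of 3 arrays, 1 array for each of 3 plant batches, 12 arrays in all. Whole seeds were used, so fewer cells of a type and less RNA per cell cannot be told apart.

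By 16 DAF all 5 cupin genes were lower in abi3-6 than in wild type. Their levels ranged from 2.95% of wild type for AT1G03890 to 54.9% for PAP85, or from 5.01% to 60.8% without 1 mutant array that stood apart. With other scalings of the arrays the 16 DAF difference of PAP85, -0.86 log2 units, ran from -1.23 to -0.46. At 12 DAF 3 of the 5 were lower, and AT4G36700 and PAP85 had not passed the test. Of all probe sets tested, 34.6% were lower in abi3-6 at 16 DAF and 23.7% at 12 DAF. Between 12 and 16 DAF 4 of the 5 fell in the mutant, while AT4G36700 alone passed as a fall in wild type. The shares of all probe sets that fell were 23.5% in abi3-6 and 30.4% in wild type. AT2G18540 stood at about the same reduced level at both ages, at 26.1% and 22% of wild type.

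One array bears on the 16 DAF values of abi3-6, though hardly on that of AT2G18540. The third replicate of abi3-6 at 16 DAF lay more than 1 log2 unit below both other arrays of its group for 1.16% of probe sets tested, against 0.00672% to 0.639% for the other 11 arrays. It lay as far above them for 0.78%, against 0.0403% to 0.39%. Correlations between arrays of a group nevertheless ran from 0.983 to 0.994 across probe sets, and array medians from 4.05 to 4.46. The lowest of the cupin readings at 16 DAF in abi3-6 came from this array for 4 of the 5 genes. Values without it are given beside those of the members at 16 DAF.

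Labels and control probe sets set further limits. All 16 DAF arrays, and none at 12 DAF, carry a shared prefix in the names of their scans, so age and whatever the prefix marks cannot be told apart. Titles number the wild-type 12 DAF seeds in a form that no other group has, which is likewise tied to genotype at 12 DAF. The difference between 3′ and 5′ actin control probe sets moved with genotype. It was -0.37 ± 0.17 log2 units in wild type and 0.37 ± 0.09 in abi3-6 at 12 DAF, and -0.21 ± 0.02 and 0.37 ± 0.03 at 16 DAF (SD, n = 3). For ubiquitin it was -0.09 ± 0.19 and -0.17 ± 0.10 at 12 DAF, and 0.04 ± 0.02 in wild type and 0.18 ± 0.09 in abi3-6 at 16 DAF, where the genotypes did not overlap. For GAPDH the genotypes differed by less than the spread of their arrays. What part RNA quality has in the results was not tested.

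**Figure D1:**
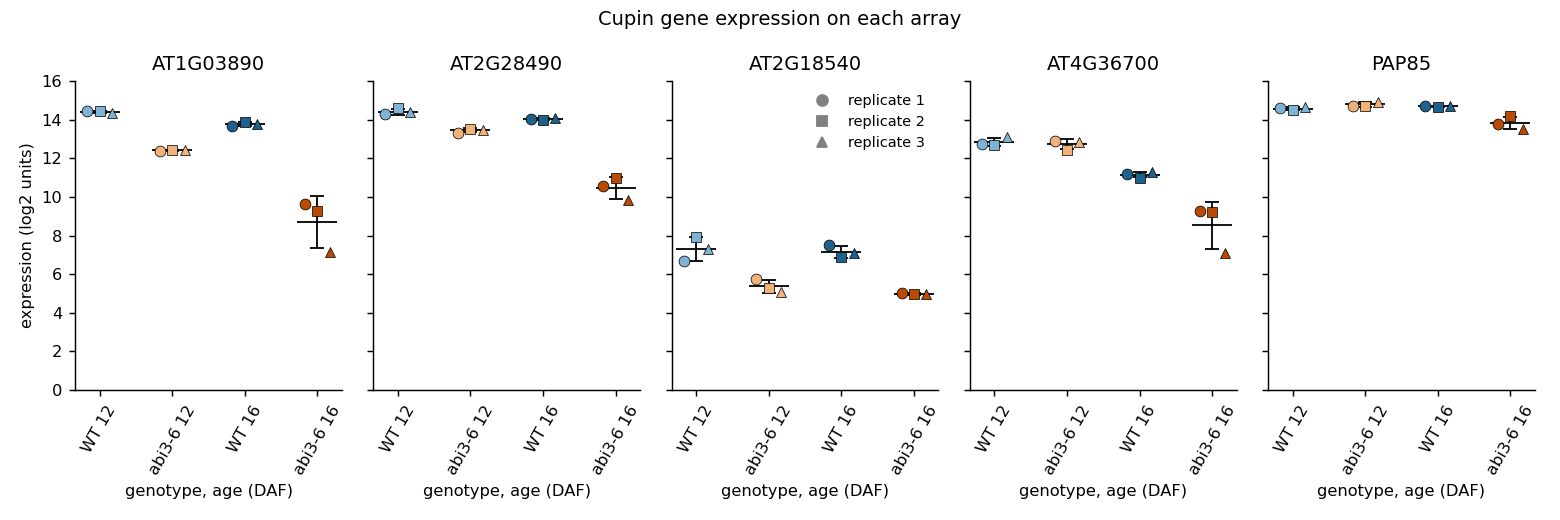
Expression of the 5 cupin genes on each of the 12 arrays, in log2 units, by genotype and age in days after flowering (DAF). Marker shapes give the replicate number, and horizontal lines with bars give the group mean and SD (n = 3). The third replicate of abi3-6 at 16 DAF is the low reading for AT1G03890 (7.17) and AT4G36700 (7.12).

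AT1G03890, the cruciferin-like member, encodes a legumin-type globulin and lies next to the cruciferin gene CRU2 in the gene table. Its log2 level on the wild-type arrays was 14.45, 14.43 and 14.34 at 12 DAF and 13.67, 13.86 and 13.79 at 16 DAF. In abi3-6 it read 12.38, 12.41 and 12.44 at 12 DAF and 9.64, 9.27 and 7.17 at 16 DAF. The genotypes did not overlap at either age, and the mutant arrays at 12 DAF agreed within 0.03 (SD, n = 3). At 12 DAF the mutant level was 25.1% of wild type (95% interval 13.1 to 48.1), a log2 difference of -1.99 ± 0.44 (SE; limma, Benjamini-Hochberg adjusted p = 0.00176). At 16 DAF it was 2.95% (1.54 to 5.66), a difference of -5.08 ± 0.44 (adjusted p = 1.66e-07). The SD was 1.33 in abi3-6 at 16 DAF and 0.03 to 0.10 in the other groups, so the shared SE may understate the uncertainty at 16 DAF. A limma fit of the 2 groups at 16 DAF alone gave an adjusted p of 0.000121. Without the third mutant array the 16 DAF level was 5.01% of wild type (4.03 to 6.23), so the fold change dropped from 33.9 to 20. The interval at 12 DAF then became 20.6 to 30.5, since that array enters the shared estimate of spread.

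AT2G28490, a vicilin-like member, held a high level in wild type. Its log2 readings there were 14.28, 14.58 and 14.39 at 12 DAF and 14.02, 13.97 and 14.11 at 16 DAF. In abi3-6 they were 13.33, 13.53 and 13.47 at 12 DAF and 10.57, 10.99 and 9.84 at 16 DAF. The 4 groups formed 4 separate ranges, with wild type at 12 DAF on top and abi3-6 at 16 DAF at the bottom. The mutant reached 50.9% of wild type at 12 DAF (95% interval 36.5 to 70.9; log2 difference -0.97 ± 0.22 SE, adjusted p = 0.00236). At 16 DAF it reached 8.47% (6.08 to 11.8; -3.56 ± 0.22, adjusted p = 6.01e-09), or 10.5% without the third mutant array.

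AT2G18540, also vicilin-like, had the widest spread of the 5 genes in wild type at 12 DAF. Wild-type arrays read 6.69, 7.92 and 7.32 log2 units at 12 DAF and 7.51, 6.88 and 7.09 at 16 DAF. Mutant arrays read 5.73, 5.31 and 5.08 at 12 DAF and 5.01, 4.95 and 4.96 at 16 DAF. Within wild type the ages overlapped, within abi3-6 the 16 DAF readings all lay below those at 12 DAF, and all 6 mutant arrays lay below all 6 wild-type arrays. The genotype difference was -1.94 ± 0.27 (SE) at 12 DAF (adjusted p = 3.99e-05) and -2.19 ± 0.27 at 16 DAF (adjusted p = 5.57e-06). As shares of wild type these are 26.1% (95% interval 17.6 to 38.8) and 22% (14.8 to 32.7). At 16 DAF the share was 22.1% without the third mutant array.

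AT4G36700, the next vicilin-like member, read 12.72, 12.70 and 13.11 log2 units in wild type and 12.91, 12.44 and 12.83 in abi3-6 at 12 DAF. The genotypes overlapped at that age. The difference was -0.12 ± 0.42 (SE, adjusted p = 0.831), and its 95% interval, 49.3% to 172% of wild type, spans both directions. Without abi3-6 16 DAF replicate 3, which enters the shared estimate of spread, the interval was 72% to 118% (adjusted p = 0.561). At 16 DAF wild type had come down to 11.21, 11.00 and 11.27, and abi3-6 to 9.27, 9.21 and 7.12. The genotypes no longer overlapped, and the mutant stood at 16.1% of wild type (95% interval 8.65 to 30.1; -2.63 ± 0.42, adjusted p = 6.94e-05). The SD at 16 DAF was 1.22 in abi3-6 and 0.14 in wild type, so the shared SE may understate the uncertainty here too. Without the third mutant array the share was 26.3% (20 to 34.6), and the fold change dropped from 6.2 to 3.8.

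PAP85, a vicilin-like protein gene, had the smallest genotype difference of the 5 at 16 DAF. Wild-type readings were 14.59, 14.49 and 14.64 log2 units at 12 DAF and 14.72, 14.67 and 14.72 at 16 DAF. Those of abi3-6 were 14.73, 14.72 and 14.92 at 12 DAF and 13.79, 14.18 and 13.54 at 16 DAF. At 12 DAF the mutant arrays all lay just above the wild-type arrays, but the difference of 0.21 ± 0.15 (SE) did not pass (adjusted p = 0.272). At 16 DAF the mutant lay below wild type on every array, at 54.9% of it (95% interval 43.6 to 69.2; -0.86 ± 0.15, adjusted p = 0.000203). Without the third mutant array the share was 60.8%. Scaling moved the difference further, to -1.23 after median centring and -0.46 after quantile normalization. Both lie outside the log2 interval of -1.20 to -0.53, and both passed. The highest value of any probe set on an array was 15.51 to 15.89, so PAP85 signals lay near the top of the scale, and how far that compresses its differences was not tested. In wild type at 12 DAF AT1G03890 (14.34 to 14.45) and AT2G28490 (14.28 to 14.58) lay nearly as high, so the same limit holds for them.

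**Figure D2:**
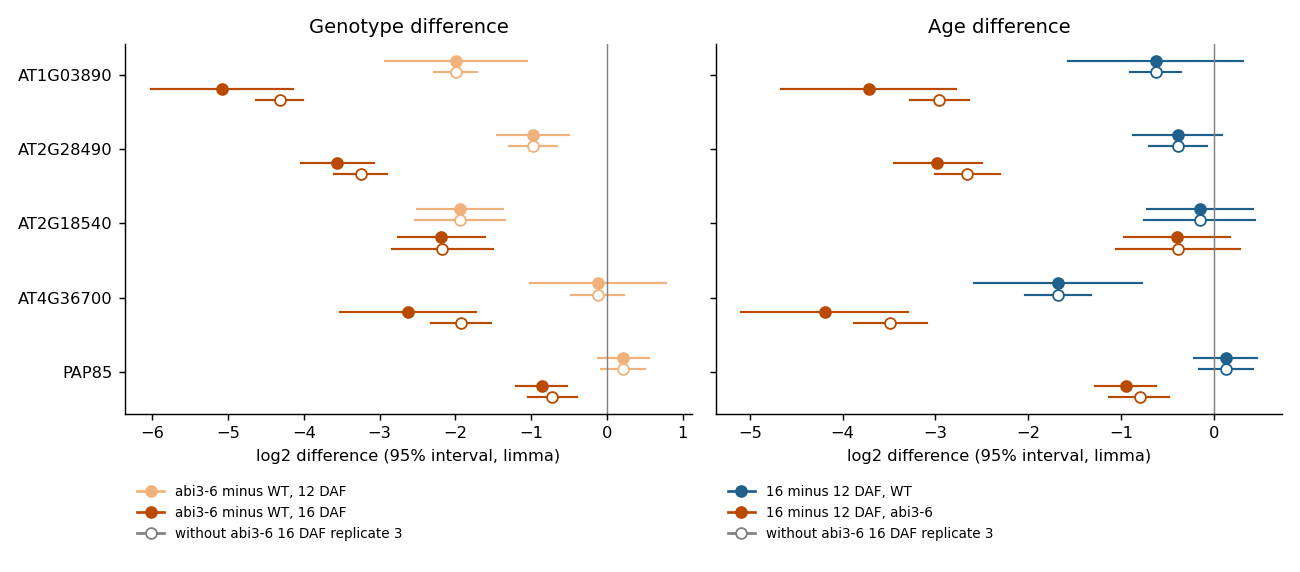
Log2 differences of the 5 cupin genes with 95% intervals from limma: abi3-6 minus wild type at each age on the left, and 16 minus 12 DAF within each genotype on the right. Filled points use all 12 arrays and open points leave out the third replicate of abi3-6 at 16 DAF. In the left panel all 5 genes lie below 0 at 16 DAF, from -5.08 for AT1G03890 to -0.86 for PAP85.

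Counted against the whole array, 3 of 5 cupin genes passed as lower in abi3-6 at 12 DAF, where 23.7% of all probe sets tested were called lower. At 16 DAF 5 of 5 passed as lower, against a background of 34.6%. The median difference of the 5 was -0.97 at 12 DAF and -2.63 at 16 DAF, beside medians of -0.00 and -0.03 over all 14873 probe sets tested. Without the third mutant array the 16 DAF median of the cupin genes was -2.18. The background itself moves with the scaling. Of the 14873 probe sets, 4030 were higher and 3530 lower at 12 DAF and 5288 and 5151 at 16 DAF. After centring each array on its median 15082 probe sets were tested. The counts then became 3373 and 4648, and 3976 and 7558. After centring, the median over all probe sets was -0.14 at 12 DAF and -0.41 at 16 DAF, and the cupin counts were 3 and 5 of 5 under it as well.

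Whether the genotype difference itself changed with age was tested as the interaction of genotype and age. For 4 of 5 cupin genes the difference was more negative at 16 DAF, where 18.9% of all probe sets tested had an interaction in that direction (2341 positive and 4201 negative after median centring, against 3155 and 2816). The interaction was -3.09 ± 0.62 log2 units for AT1G03890 (SE; limma, Benjamini-Hochberg adjusted p = 0.00132) and -2.59 ± 0.31 for AT2G28490 (adjusted p = 2.63e-05). It was -2.51 ± 0.59 for AT4G36700 (adjusted p = 0.00406) and -1.08 ± 0.22 for PAP85 (adjusted p = 0.0015). AT2G18540 was the exception, with -0.25 ± 0.38 (adjusted p = 0.637) and an interval from -1.06 to 0.56. Leaving out the third mutant array brought the interaction of AT1G03890 to -2.32 ± 0.19 and that of AT4G36700 to -1.80 ± 0.24, and those of AT2G28490 and PAP85 to -2.27 ± 0.22 and -0.93 ± 0.20. All 4 calls held.

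In wild-type seeds 1 of 5 cupin genes passed as lower at 16 than at 12 DAF and 0 as higher, where 4762 of 14873 probe sets tested were higher. AT4G36700 was that member, falling to 31.1% of its 12 DAF level (95% interval 16.7 to 58.1; -1.68 ± 0.42 SE, adjusted p = 0.00297), and 30.4% of all probe sets tested were lower with age in wild type. AT1G03890 and AT2G28490 also had lower readings at 16 DAF, with no overlap between ages, by -0.63 ± 0.44 (adjusted p = 0.223) and -0.39 ± 0.22 (adjusted p = 0.144). These tests share one estimate of spread with the mutant groups. When the third mutant array was left out, both passed, at -0.63 ± 0.13 (adjusted p = 0.000868) and -0.39 ± 0.14 (adjusted p = 0.0312). That made 3 of 5 lower, where the background was 30.8%. AT2G18540 differed by -0.15 ± 0.27 and PAP85 by 0.13 ± 0.15, and neither passed with or without that array.

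In abi3-6 seeds 4 of 5 cupin genes fell over the same interval, while 23.5% of all probe sets tested did. AT4G36700 dropped to 5.46% of its 12 DAF level (95% interval 2.93 to 10.2; -4.19 ± 0.42 SE, adjusted p = 2.03e-06). AT1G03890 dropped to 7.59% (3.96 to 14.6; -3.72 ± 0.44, adjusted p = 9.61e-06). Both had read 12.38 log2 units or above on every mutant array at 12 DAF. AT2G28490 came down to 12.7% (9.13 to 17.7; adjusted p = 1.34e-07) and PAP85 to 51.7% (41.1 to 65.2; adjusted p = 0.000178). AT2G18540, already low at 12 DAF, differed by -0.40 ± 0.27 and did not pass (adjusted p = 0.232). Without the third mutant array AT4G36700 stood at 8.91% and AT1G03890 at 12.9% of the 12 DAF level, 11.2-fold and 7.76-fold falls in place of 18.3-fold and 13.2-fold. AT2G28490 then stood at 15.8% and PAP85 at 57.3%.

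The order of the 4 groups thus differed among the members. For AT1G03890 and AT2G28490 it ran from wild type at 12 DAF through wild type at 16 DAF and abi3-6 at 12 DAF to abi3-6 at 16 DAF. The first and second of these were not distinguished by the test with all 12 arrays. For AT4G36700 both genotypes at 12 DAF lay on top and did not differ beyond their spread, followed by wild type and then abi3-6 at 16 DAF. For AT2G18540 both wild-type groups lay above both mutant groups. The ages overlapped in wild type, and in abi3-6 they did not, though that age difference did not pass. PAP85 had 3 groups between 14.49 and 14.92 log2 units, of which no pair tested passed, and abi3-6 at 16 DAF below them. Over the 12 arrays, which share this 4-group structure, Pearson's r between members ran from 0.47 for AT2G18540 with PAP85 to 0.98 for AT1G03890 with AT2G28490.

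**Figure D3:**
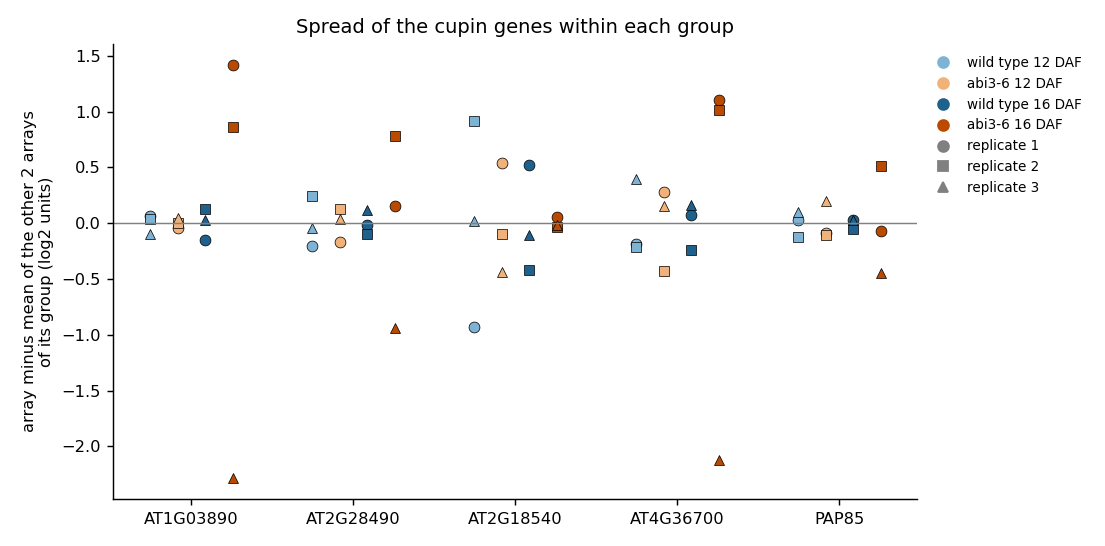
Each array's log2 value minus the mean of the other 2 arrays of its group, for the 5 cupin genes. Colours give the group and marker shapes the replicate number. The third replicate of abi3-6 at 16 DAF lies more than 2 log2 units down for AT1G03890 and AT4G36700, and at about 0 for AT2G18540.

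The third replicate of abi3-6 at 16 DAF did not stand equally low for all members. It lay 2.11 log2 units below the lower of its fellows for AT1G03890 and 2.09 for AT4G36700, which is 4.31-fold and 4.25-fold. The gap was 0.73 for AT2G28490 and 0.25 for PAP85. For AT2G18540 it read 4.96, between the other 2 arrays at 4.95 and 5.01. On this array the 3′ minus 5′ difference was the lowest of its group for actin (0.34, group up to 0.40) and ubiquitin (0.12, up to 0.28) and the highest for GAPDH (0.32, group from 0.08).

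Storage globulins are folded and sorted on their way to the vacuole, where cruciferins are cut by VPEs. Of 18 genes listed for processing and vacuolar sorting, 6 were measured by an unshared probe set. Of the 6, 3 were lower and 0 higher in abi3-6 at 12 DAF, and 3 were lower and 1 higher at 16 DAF. At these ages 23.7% and 34.6% of all probe sets tested were lower, and 4030 and 5288 of 14873 were higher. BETA-VPE, the seed-type enzyme that cleaves storage globulins, was lower at both ages and more so at 16 DAF (interaction -1.27 ± 0.32, adjusted p = 0.00597). Its mean was 13.60 log2 units in wild type and 12.24 in abi3-6 at 12 DAF, and 13.65 and 11.02 at 16 DAF, so the differences were -1.36 ± 0.22 (SE, adjusted p = 0.000195) and -2.63 ± 0.22 (adjusted p = 1.56e-07). BETA-VPE differed by -2.30 at 16 DAF without the third mutant array, with an interaction of -0.94, and both passed. GAMMA-VPE, the vegetative-type enzyme, was lower by -0.95 ± 0.14 and -0.77 ± 0.14. DELTA-VPE, which acts in the developing seed coat, crossed over, at -1.34 ± 0.19 at 12 DAF and 2.38 ± 0.19 at 16 DAF. Its wild-type level fell from 10.19 to 6.69 log2 units, and the mutant means were 8.85 and 9.08 (adjusted p = 0.333 for age).

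ALPHA-VPE differed by 0.54 ± 0.26 at 12 DAF (adjusted p = 0.101) and 0.19 ± 0.26 at 16 DAF (adjusted p = 0.536), and it fell with age in both genotypes, by 3.46 ± 0.26 and 3.82 ± 0.26 log2 units. Without the third mutant array the ALPHA-VPE difference passed at both ages, at 0.54 (adjusted p = 0.0122) and 0.57 ± 0.18 (adjusted p = 0.0123), and after median centring the 16 DAF value was -0.17. MAG2, needed for export of storage proteins from the endoplasmic reticulum, differed by -0.41 ± 0.17 at 12 DAF (adjusted p = 0.0599) and was lower by -0.57 ± 0.17 at 16 DAF (adjusted p = 0.00865). The MAG2 difference at 12 DAF passed in 5 of 19 alternatives, 1 of them the fit without wild-type 12 DAF replicate 1 (-0.57). The aspartic protease gene APA1 did not pass at either age, with 0.06 ± 0.13 and 0.19 ± 0.13, but passed at 16 DAF after quantile normalization (0.56). Of 11 genes for folding in the endoplasmic reticulum, 2 were measured. The calnexin gene CNX2 was higher in abi3-6 at both ages, by 1.42 ± 0.21 and 2.04 ± 0.21, and the calreticulin gene CRT2 at 16 DAF, by 2.57 ± 0.17, after 0.06 ± 0.17 at 12 DAF.

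Among 15 regulators of seed maturation, 3 had a probe set of their own, all bZIP factors, and ABI3 was not among them. EEL, a relative of ABI5, was lower in abi3-6, at 10.59 against 11.88 log2 units at 12 DAF (-1.29 ± 0.23, adjusted p = 0.000371) and 8.91 against 10.51 at 16 DAF (-1.60 ± 0.23, adjusted p = 2.8e-05), or by -1.24 without the third mutant array. BZIP53, an activator of storage protein genes that pairs with other bZIP factors, differed by -0.24 ± 0.18 at 12 DAF (adjusted p = 0.265) and was lower by -0.85 ± 0.18 at 16 DAF (adjusted p = 0.000656). The interaction for BZIP53 was -0.61 ± 0.25 (adjusted p = 0.0672) and passed in 3 of 19 alternatives, 1 of them without abi3-6 16 DAF replicate 1 (-0.73). Without the third mutant array BZIP53 was lower by -0.65 at 16 DAF, and its interaction was -0.40 (limma, adjusted p = 0.147). BZIP44 went the other way, by 0.46 ± 0.18 at 12 DAF (adjusted p = 0.0452) and 3.01 ± 0.18 at 16 DAF (adjusted p = 3.3e-09). The 12 DAF call for BZIP44 was lost in 10 of 20 alternatives, among them leaving out wild-type replicate 2 (0.32), abi3-6 replicate 1 (0.43) or 2 (0.39) at 12 DAF, and wild-type replicate 3 or abi3-6 replicate 1 or 2 at 16 DAF (0.46 each). Of the 8 other seed storage proteins listed, cruciferins and 2S albumins, and of 12 genes called cupin or germin in the gene table, 0 could be read from an unshared probe set.

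**Figure D4:**
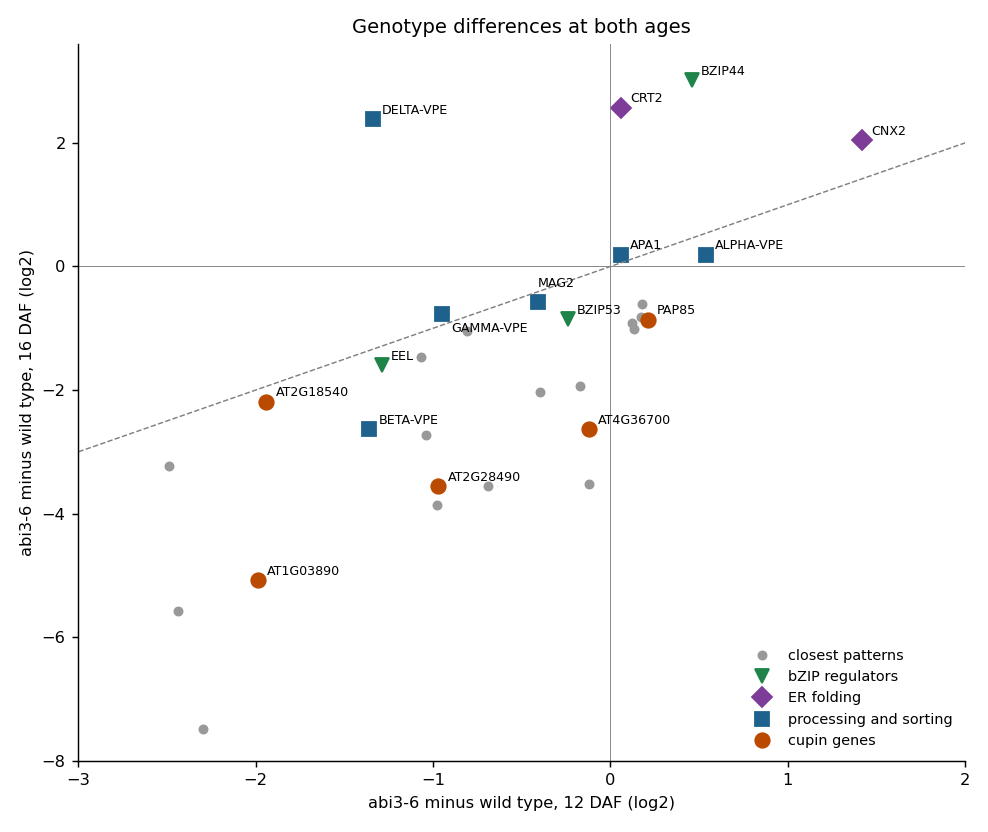
Log2 difference between abi3-6 and wild type at 12 DAF (horizontal) and at 16 DAF (vertical) for the cupin genes, genes of storage protein processing and sorting, folding in the endoplasmic reticulum (ER), bZIP regulators, and the 15 genes with the closest patterns. The dashed line marks equal differences. AT1G03890, AT2G28490, AT4G36700, PAP85 and BETA-VPE lie below it, AT2G18540 lies near it, and DELTA-VPE, CRT2 and BZIP44 lie above it.

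Markers of seed parts were read beside these values. Of 10 seed coat markers 3 were measured. Their summed level was 9.85 to 10.1 log2 units in wild type and 10.3 to 10.7 in abi3-6 at 12 DAF, and 9.63 to 9.96 and 11.1 to 11.4 at 16 DAF, carried by ARA12, while PER36 lay below the dim limit of 3.16 on all arrays. BAN, the other seed coat marker measured, lay near that limit at 12 DAF and below it on all 16 DAF arrays. Its means were 3.18 log2 units in wild type and 3.08 in abi3-6 at 12 DAF (adjusted p = 0.707), and 2.42 and 2.57 at 16 DAF (adjusted p = 0.495). With age in abi3-6 ARA12 rose by 0.83 ± 0.15, while BAN was lower (adjusted p = 0.0476). The BAN call was lost in 10 of 18 alternatives, 8 of them fits without 1 array: any of the 6 at 12 DAF, or replicate 1 of either genotype at 16 DAF, with differences of -0.55 to -0.29. ARA12 was higher in abi3-6 by 0.52 ± 0.15 at 12 DAF, a call lost after quantile normalization (0.36) and without abi3-6 12 DAF replicate 1 (0.40), and by 1.45 ± 0.15 at 16 DAF. The 1 embryo marker measured of 5, BBM, was lower by -1.40 ± 0.19 and -1.04 ± 0.19, with a mean near the dim limit in abi3-6 at 16 DAF (3.23). Both endosperm markers measured of 7 lay below the dim limit on all arrays. The 1 silique wall marker measured of 6, ALC, differed by -1.14 ± 0.29 and 1.34 ± 0.29. The lower group each time, abi3-6 at 12 DAF (mean 3.03) and wild type at 16 DAF (2.90), had only 1 array above the dim limit. The part of these shifts in the cupin results was not tested.

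Genes with the most similar patterns were ranked by Pearson's r over the 12 arrays among 8141 other probe sets with 1 gene, as a description without a test. Closest to AT1G03890 were AT2G34315 (r = 0.997), AT1G70985 (0.996) and the oleosin gene AT3G18570 (0.992), whose product coats oil bodies. AT2G28490 was closest to a further oleosin gene, AT3G01570 (0.992), then to AT3G18570 (0.989) and AT2G34315 (0.987). AT3G01570 was also closest to the mean of the 5 members (0.993), ahead of AT1G54860 (0.989) and AT1G65090 (0.988). Its mean level was 14.24 log2 units in wild type and 13.27 in abi3-6 at 12 DAF, and 13.82 and 9.96 at 16 DAF, the same order of groups as AT2G28490. The third mutant array read 9.07 for AT3G01570, against 10.27 and 10.53.

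The remaining members had other nearest genes. AT4G36700 was closest to AT1G04660 (r = 0.992), AT4G19380 (0.990) and AT2G24860 (0.988). Like AT4G36700, AT1G04660 fell with age in both genotypes, from 12.14 to 9.84 log2 units in wild type and from 12.02 to 6.32 in abi3-6, where the third array read 5.22 against 6.69 and 7.05. AT2G18540 was closest to AT3G03790 (0.974), AT3G55050 (0.973) and AT5G15680 (0.964), of which AT3G03790 differed between genotypes by -2.49 ± 0.15 at 12 DAF and -3.23 ± 0.15 at 16 DAF. PAP85 was closest to AT4G15940 (0.953), AT1G14950 (0.944) and AT2G44770 (0.938). AT1G14950 had means of 14.48 and 14.59 log2 units in wild type and abi3-6 at 12 DAF, and 14.38 and 13.45 at 16 DAF. No gene was among the 3 closest to both AT2G18540 and another member.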

How the data were processed

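The deposited table held log2 expression values for 12 one-colour Affymetrix arrays, 1 value per probe set, made by the authors with GCOS 1.3 and GCRMA 2.0.0 per the submitters' processing notes, which give no role or order. No label states the scale, which was inferred from the range of all values, 1.49 to 15.89. Whether arrays were set to a common level is unknown, and GCRMA's background step can stretch or compress dim signals. The table has 22746 probe sets that are not controls. Of these, 13513 had 1 gene in the platform annotation, 503 had several and 8730 were unnamed here, and loci were matched to the TAIR10.1 gene table for names only.

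A probe set was tested if 3 or more arrays lay at or above 3.16, which is percentile 40 of the table (14873 probe sets). The model, fitted by limma 3.58.1 (R 4.3.3), gave each of the 4 groups a mean over the 12 arrays. Its eBayes step had 5.41 prior degrees of freedom beside 8 residual ones, with two-sided contrasts and Benjamini-Hochberg adjustment over all probe sets tested. A gene passed at an adjusted p under 0.05. Shares of wild type are 2 to the power of the log2 difference, with 95% intervals from limma. The fit was checked on simulated data in which each probe set had the same spread in all groups. The check does not cover genes such as AT1G03890, with SD 1.33 in abi3-6 at 16 DAF and 0.03 at 12 DAF. Figures were drawn with Python 3.11.15 and matplotlib 3.10.9.

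Members, gene lists and marker lists were chosen with earlier results of these data known. The rule for naming took all members, every measured gene of a list with up to 6 measured genes, and the 3 genes most like each member and like their mean. Alternatives were no filter or a stricter one, median centring, quantile normalization, array weights, a trended robust prior, fits of 2 groups, a replicate block, and leaving out each array. Precision is limited by having 3 arrays per group.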

Additional observations from a re-analysis of the deposited data

Results flagged for a closer look

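For 4 members the difference between abi3-6 and wild type was not the same at the 2 ages, by the interaction term of limma fitted over all probe sets tested. The change from 12 to 16 DAF was -3.09 log2 units for AT1G03890, -2.59 for AT2G28490, -2.51 for AT4G36700 and -1.08 for PAP85. Each of these 4 calls held in 19 of 19 alternatives. With all 12 arrays and with the third replicate of abi3-6 at 16 DAF left out, the values of AT1G03890 were -3.09 and -2.32 and those of AT4G36700 were -2.51 and -1.80.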

How the results depend on the processing

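Numbers of cupin genes passing were 3 at 12 DAF, 5 at 16 DAF, 4 for the interaction and 4 for age in abi3-6 under every alternative run. For age in wild type the number was 1, and it rose to 3 with the 2 groups of the contrast alone and ranged from 1 to 3 over the fits that left out 1 array, with 3 reached without abi3-6 16 DAF replicate 3. The added calls were AT1G03890 (-0.63) and AT2G28490 (-0.39). Of 495 member values under alternatives, 491 kept their side of the threshold and direction where called, 4 passed in addition and 0 were lost or reversed. Among 2950 values of other named genes 32 calls were lost, 41 gained and 0 reversed. With the replicate block the numbers were 3, 5, 4, 1 and 4, in the order given above with wild type before abi3-6 for age. Same-numbered arrays correlated in their deviations from group means by -0.021 to 0.156 over 18 pairs, 3 of them above 0.1, and since not every pair exceeded 0.1 and no label ties a number to a shared batch across groups, numbers were not taken to pair samples. A hint of pairing remains, since 8 of 12 arrays were most like an array of the same number. For age in wild type, 4762 probe sets were higher and 4519 lower, and 6758 and 3719 after median centring. With no filter, 9078 of 22746 probe sets were lower in abi3-6 than in wild type at 16 DAF, against 5151 of 14873 with it. The genotype difference of PAP85 at 16 DAF ranged most with scaling, from -1.23 after median centring to -0.46 after quantile normalization. A probe set with the lowest mean could not be tried, since each member had 1, and promoter motifs were not analysed here. Lists had the same counts with no filter, apart from BZIP44 at 12 DAF, BAN with age in abi3-6 and, among markers left out as dim, PER36 and both endosperm markers. Signal near the top of the scale limits PAP85, and likewise AT1G03890 and AT2G28490 in wild type. AT2G18540 had the lowest mean of the members in every group, though above the dim limit on every array. Its low signal may limit its fold changes.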

Other observations

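Outside the cupins, the third replicate of abi3-6 at 16 DAF was also the lowest of its group for 12 of 12 genes with patterns closest to members other than AT2G18540 or to their mean, by 0.04 to 2.42 log2 units. These genes were chosen for likeness over the same arrays, so the count is no separate evidence. AT1G70985 read 2.36 there against 4.78 and 4.82, and the oleosin gene AT3G18570 read 2.77 against 4.82 and 4.92. Among genes that were listed rather than ranked, ALPHA-VPE lay 1.05 log2 units below the lower of the other arrays, BETA-VPE 0.96, EEL 0.93 and BZIP53 0.57. Readings of CRT2 (9.83 against 9.14 and 9.31) and of the silique wall marker ALC (4.75 against 3.62 and 4.37) were the highest of the group on that array.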
